A study of Homo sapiens with 5 samples.

Results

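The introns described here are the shortest ones measured in DLD-1, an established line of human colorectal cancer cells, after loss of the splicing factor WBP11 or SNW1. An intron was taken when it spans at most 80 bp, carries the mark "clean" and has at least 10 observations in both libraries of a table. The mark is that of the deposited data, for no overlap with another annotated feature such as an exon. An observation is a unit of intron depth or a spliced read. These rules gave 1069 introns in 726 genes, out of 34560 introns listed in the 3 tables together. Of the 1069, at least 336 lie inside an exon of a GENCODE transcript, so the mark does not exclude every exon overlap. By table, 736 of 16629 listed introns qualified in the WBP11 RNAi table, 851 of 24077 in the SNW1 RNAi table and 923 of 22471 in the WBP11 auxin table. Another 39, 38 and 21 clean introns of this length were listed but had too few observations. Lengths ran from 56 to 80 bp with a median of 77 bp. Of the 1069 introns, 1065 interrupt coding sequence, 2 lie in a 5' UTR and 2 in noncoding transcripts. The choice used length, mark and depth, and set no rule on the difference between libraries. The tables themselves list only introns that reach a minimum of retention in either library, as given with the processing. An intron below that minimum in its control is therefore present only where the depleted library reached it.

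An intron is removed in 2 steps by the spliceosome, which must find the donor site at the 5' end, a branch point adenosine, a pyrimidine-rich stretch and the acceptor AG at the 3' end. In a very short intron these elements lie almost side by side, and the U1 and U2 particles that bind them have little room. Such introns are thought to be recognised across the intron itself rather than across the neighbouring exons. WBP11 is a proline-rich spliceosome protein that also binds protein phosphatase 1. SNW1, also called SKIP, is part of the activated spliceosome and a transcription coregulator.

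The study asked which introns remain in mature polyA RNA once a factor has been lowered. Each of the 5 groups is 1 library of polyA RNA. DLD-1 LacZeo cells received 100 nM siRNA against WBP11 or against SNW1 for 72 h. Both were compared with 1 shared control library of DLD-1 LacZeo cells (treatment None in the labels, named control RNAi in the file headers). In the second pair, DLD-1 LacZeo osTIR1 cells (with the plant receptor that lets auxin trigger degradation of tagged proteins) and cells for WBP11 depletion both received 500 µM auxin for 48 h. The sample labels give both the genotype DLD-1 LacZeo osTIR1. The design text describes an AID-tagged WBP11 transgene in a knockout of the endogenous gene, so these cells differ from their control by more than the loss of the protein. Whether a line was 1 clone, and which siRNA if any the control was given, is not stated in the sources used here.

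Retention is given as a percentage: in essence the depth of the intron over that depth plus the reads spliced across it. Where the listed depth was under 1, as in 135 short introns of the auxin control and 6 of its depleted library, the deposited ratio uses the listed share of intron bases covered in place of depth, as at KDM6A intron 21 in that control. An intron is called higher or lower when retention differed by at least 10 percentage points between the depleted library and its control, and "rose" and "fell" are used only in that sense. With 1 library per group there is no replicate check and no p-value. The 95% intervals (Wilson for a level, Newcombe for a difference) cover counting error within these libraries only. The listed introns held between 2987572 and 5527186 spliced reads per library. The median number of observations behind a short intron lay between 120.5 and 162 over the libraries of each table, and the median width of the interval of a difference was 12.4 points after WBP11 RNAi, 14.1 after SNW1 RNAi and 14.8 with WBP11 auxin. Relative to all listed introns, spliced reads of WBP11 stood at 6.75% of control (4.07 to 10.6) after WBP11 RNAi, and those of SNW1 at 10.2% (6.87 to 14.8) after SNW1 RNAi. In the auxin pair the protein is the target, and the 1 listed WBP11 intron stood at 38.04% of control (29.9 to 48.2). The factor that was not targeted moved as well: SNW1 stood at 65.3% (56.5 to 75.5) with WBP11 auxin and 141% (125 to 160) after WBP11 RNAi, and WBP11 at 196% (181 to 212) after SNW1 RNAi. These values cover the spliced reads of listed introns only, and their part in the results was not tested. In bulk RNA, fewer cells with a transcript and less transcript per cell cannot be told apart. Of 12 colorectal epithelium markers, 4 or 5 had a listed intron in each table, and none of 8 fibroblast markers had one. Spliced reads of the listed epithelial markers numbered 39171 after WBP11 RNAi and 47906 in the control, 83896 and 284222 for SNW1 RNAi, and 18063 and 28308 for WBP11 auxin. Their part in the results was not tested. CD68 was the 1 leukocyte marker listed, with at most 39 spliced reads per library. The tables list introns, so a gene without one is not thereby absent from the cells.

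The sequences of 336 of the 1069 short introns could be read, from GENCODE release 29 transcripts that keep the intron inside an exon. The introns below are printed 5' to 3' on the strand of the gene, with hg38 coordinates. Capitals mark the first 6 bases (the donor side), the CTNAC match nearest to the 3' end where there is one (a common core of branch point sequences), and the last 3 bases (the acceptor). The first 5 introns were among those that rose most in all 3 comparisons:
LAMB2 intron 26 (chr3:49123374-49123446, minus strand): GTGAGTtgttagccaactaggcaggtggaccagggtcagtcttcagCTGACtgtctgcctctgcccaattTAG
LAMB2 intron 27 (chr3:49123053-49123131, minus strand): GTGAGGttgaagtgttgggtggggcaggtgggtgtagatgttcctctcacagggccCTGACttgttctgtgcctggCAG
MTA1 intron 5 (chr14:105450185-105450260, plus strand): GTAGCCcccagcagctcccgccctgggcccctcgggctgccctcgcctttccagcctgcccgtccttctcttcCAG
MUS81 intron 13 (chr11:65865146-65865219, plus strand): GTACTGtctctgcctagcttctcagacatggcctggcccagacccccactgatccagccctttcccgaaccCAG
ACADVL intron 3 (chr17:7220530-7220603, plus strand): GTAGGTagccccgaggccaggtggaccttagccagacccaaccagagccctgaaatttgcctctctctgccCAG

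The next 4 are shown because each rose by at least 30 points in 1 comparison and stayed within 5 points of control in the other 2. CXXC1 and JMJD8 did so after SNW1 RNAi, CRY1 and NCAPD2 after WBP11 auxin:
CXXC1 intron 6 (chr18:50285248-50285324, minus strand): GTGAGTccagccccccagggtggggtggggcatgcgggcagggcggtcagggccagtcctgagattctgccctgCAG
JMJD8 intron 3 (chr16:683782-683860, minus strand): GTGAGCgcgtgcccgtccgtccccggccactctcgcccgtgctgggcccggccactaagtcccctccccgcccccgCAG
CRY1 intron 11 (chr12:106992891-106992964, minus strand): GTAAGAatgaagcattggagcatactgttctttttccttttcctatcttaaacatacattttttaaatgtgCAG
NCAPD2 intron 7 (chr12:6514393-6514463, plus strand): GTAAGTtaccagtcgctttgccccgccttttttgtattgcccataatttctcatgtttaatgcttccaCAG

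The introns of CXXC1 and JMJD8 are 71.4% and 78.5% G and C, and those of CRY1 and NCAPD2 31.1% and 42.3%. The last 4 are the shortest intron of all (HNRNPH1), another of the 5 shortest (PLXNB2), and 2 in ATP13A1 and ZFYVE19 that were among the largest rises after WBP11 RNAi:
HNRNPH1 intron 6 (chr5:179617933-179617988, minus strand): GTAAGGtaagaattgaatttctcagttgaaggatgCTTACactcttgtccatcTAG
PLXNB2 intron 21 (chr22:50281500-50281565, minus strand): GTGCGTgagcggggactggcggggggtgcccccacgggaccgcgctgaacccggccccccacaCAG
ATP13A1 intron 5 (chr19:19656917-19656993, minus strand): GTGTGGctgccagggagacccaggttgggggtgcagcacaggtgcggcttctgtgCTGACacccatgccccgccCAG
ZFYVE19 intron 10 (chr15:40814071-40814147, plus strand): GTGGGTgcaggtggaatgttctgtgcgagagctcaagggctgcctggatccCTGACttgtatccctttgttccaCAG

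As a set, 334 of the 336 sequences begin with GT and 2 with GC, and all 336 end with AG. Their median G and C content was 65.5%, with 10th and 90th percentiles of 35.1% and 75.97%, against a median of 61.9% in 559 clean introns of 81 to 100 bp read in the same way. CTNAC, searched on the transcribed strand, was found in 136 introns (40.5%, against 37.9% of the introns of 81 to 100 bp), with a median of 20 bases after its A. The donor start GTGAGT was found in 49 introns (14.6%, against 15.6%) and GTAAGT in 22 (6.55%, against 7.69%). If the intron were kept and translated, 211 of the 336 would bring a stop codon in the frame of the preceding coding sequence, 104 would shift the frame without one inside the intron, and 21 would do neither.

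Among the listed introns, short ones rose in all 3 comparisons and few fell. A fall was possible only where control retention was at least as large as the drop required. Median control retention of the short introns was 2.76%, 2.44% and 3.52% for WBP11 RNAi, SNW1 RNAi and WBP11 auxin. Most of them therefore could not fall, so the numbers of rises and falls cannot be weighed against each other. Introns below the listing minimum in both libraries are in none of these shares. After WBP11 RNAi, 176 of 736 rose (23.9%) and 9 fell, where 9.07% of all 16068 introns past the depth minimum rose and 1.69% fell. After SNW1 RNAi, 371 of 851 rose (43.6%) and 3 fell, against 16.6% and 0.359% of all 23366. After WBP11 auxin, 595 of 923 rose (64.5%) and 3 fell, against 13.8% and 1.37% of all 21828. The median change of the short introns was 2.33, 7.99 and 18.4 points, and that of all introns 0.76, 2.63 and 1.45 points. The interval of the difference lay above 0 in 246, 532 and 701 short introns, which is 33.4%, 62.5% and 75.9% of them, where it did so in 14.2%, 31.0% and 20.6% of all introns.

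The same 571 introns passed the depth minimum in all 3 tables, which lets the libraries be set side by side. Their median retention was 3.01% in the control, 5.90% after WBP11 RNAi, 13.4% after SNW1 RNAi, 5.82% in the auxin control and 34.2% after WBP11 auxin. The number kept in over 50% of transcripts was 2, 30, 41, 12 and 169 in the same order. The 2 controls were not alike: retention in the auxin control was above that in the control at 452 of the 571 introns, by a median of 2.17 points. Each change is therefore given against its own control.

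**Figure D1:**
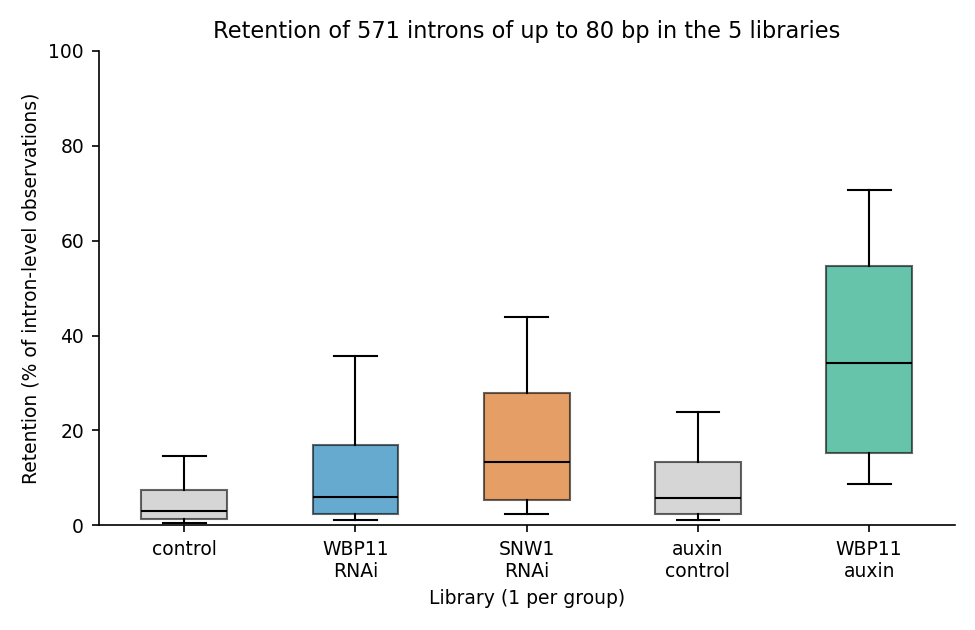
Retention (%) of the 571 introns of up to 80 bp that passed the depth minimum in all 3 tables, by library (1 per group). Boxes span the quartiles over introns, the line is the median and the whiskers the 10th and 90th percentiles; the WBP11 auxin library has the highest median, 34.2%, and the control the lowest, 3.01%.

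The share that rose went down with intron length within the short class and just beyond it. Control retention went down with length as well. Its median in the auxin control was 11.5% up to 70 bp, 5.72% at 71 to 75 bp, 2.54% at 76 to 80 bp and 1.89% at 81 to 85 bp. In the SNW1 RNAi table the control had 5.74%, 2.95%, 2.02% and 1.18% in these classes. The part of control retention in the order by length was not tested. After WBP11 auxin, 83.9% of the introns of up to 70 bp rose (47 of 56), 73.6% of those of 71 to 75 bp (198 of 269) and 58.5% of those of 76 to 80 bp (350 of 598). The share went on down past 80 bp, to 40.9% at 81 to 85 bp, 28.0% at 86 to 90 bp and 19.7% at 91 to 95 bp. For clean introns of over 100 and up to 200 bp it was 12.7%, next to the 13.8% of all introns. After SNW1 RNAi the shares in the same 3 short classes were 76.4%, 54.3% and 34.8%, and 23.0% at 81 to 85 bp. There the share rose again with length, from 13.4% at 91 to 95 bp to 24.98% in introns of over 150 and up to 200 bp, before it fell to 3.94% over 2000 bp. WBP11 RNAi gave 36.7%, 29.02% and 20.1% in the short classes, 14.5% at 81 to 85 bp and 7.45% at 96 to 100 bp. It too was higher again beyond that, with 14.3% over 120 and up to 150 bp and 11.6% over 150 and up to 200 bp, and stood at 1.28% over 2000 bp. The limit of 80 bp is not a step: at 80 bp 50.4% of 139 introns rose after WBP11 auxin, and at 81 bp 48.7% of 154.

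**Figure D2:**
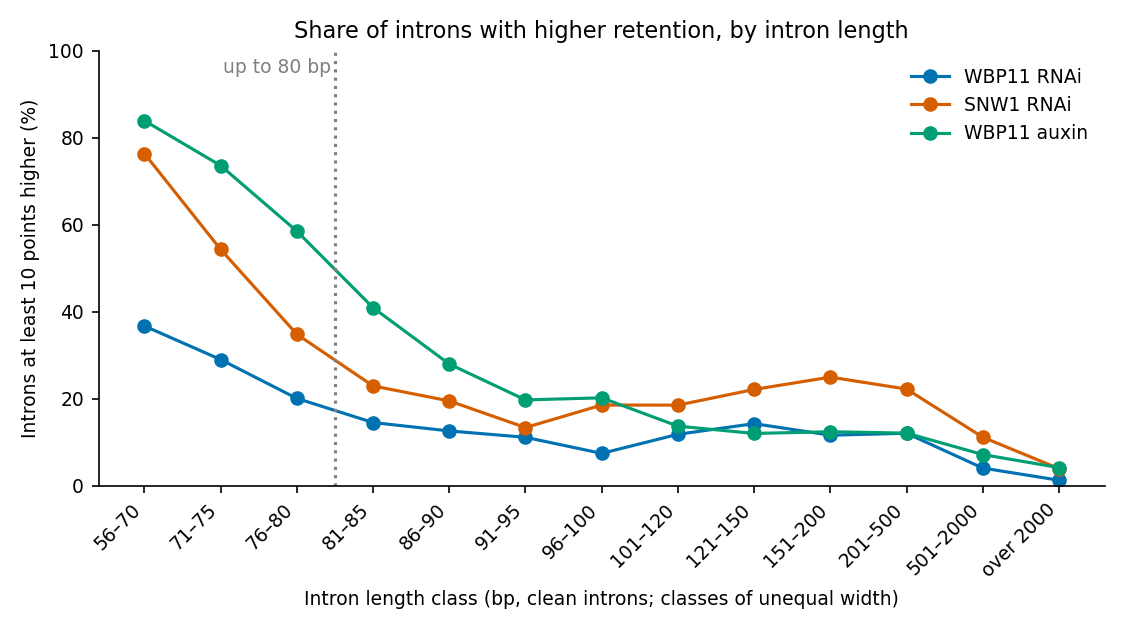
Share (%) of clean introns at least 10 points higher than control (vertical axis) in each length class (horizontal axis, classes of unequal width) for the 3 comparisons. The WBP11 auxin line falls from 83.9% in the shortest class to 13.7% in the class of up to 120 bp, and the dotted line stands at 80 bp.

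The 2 shortest introns are given first, and both changed with WBP11 auxin by more than the median of 18.4 points of all short introns. Intron 6 of HNRNPH1 (chr5:179617933-179617988, 56 bp), a heterogeneous nuclear ribonucleoprotein that binds G-rich RNA, was kept in 3.38% of transcripts in the control, 15.6% after WBP11 RNAi and 25.6% after SNW1 RNAi. In the auxin pair it went from 4.73% to 66.4%, a difference of 61.7 points (59.7 to 63.6) resting on 1894 and 2983 observations, and it rose in each comparison. Intron 10 of PLXNA1 (chr3:127014117-127014181, 65 bp), a plexin receptor for semaphorins, had 5.94% in the control, 9.10% after WBP11 RNAi and 57.3% after SNW1 RNAi, and went from 9.70% to 59.5% with auxin. It rose after SNW1 RNAi and WBP11 auxin, while its difference after WBP11 RNAi was 3.15 points (-2.94 to 9.70). At the other end of the range, the 80 bp introns with the deepest coverage moved less. Intron 13 of EEF2 (chr19:3977348-3977427), the translation elongation factor, went from 0.403% to 1.39% after SNW1 RNAi and from 1.10% to 18.8% with WBP11 auxin. Intron 6 of GPX4 (chr19:1106460-1106539), a peroxidase for lipid peroxides, went from 1.35% to 9.83% with WBP11 auxin and stayed under 3% in the RNAi libraries. Just over the limit, the 81 bp introns with the deepest coverage were in EIF4A1 (intron 7) and RPL6 (intron 2). They went from 1.26% to 3.996% and from 0.578% to 4.96% with WBP11 auxin. These deep introns are not typical of their length. The median change with WBP11 auxin was 10.3 points over all 139 clean introns of 80 bp and 9.33 points over the 154 of 81 bp.

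WBP11 auxin gave the largest changes: 295 short introns rose by at least 30 points and 107 by at least 50. Among the largest was that of KDM6A, a histone H3 lysine demethylase, which went from 0.856% to 82.2% at intron 21 (chrX:45082641-45082714, 74 bp). PGAP6, which acts on GPI-anchored proteins, went from 5.06% to 82.5% at intron 10 (chr16:374152-374220, 69 bp). MAP3K6, a kinase of the MAP kinase cascade, went from 12.8% to 88.3% at intron 11, and this intron was listed in the auxin table only. In the depleted auxin library IRFinder warned of a minor isoform at 90 of the 923 short introns. The warning stood on the auxin values of KDM6A intron 21, POLE intron 17, RFC4 intron 9, FHOD1 intron 5 and ZFYVE19 intron 10, all described here, and on the WBP11 RNAi value of ZFYVE19 intron 10. A warning of uneven intron cover stood on 161, 187 and 132 short introns of the depleted libraries for WBP11 RNAi, SNW1 RNAi and WBP11 auxin. In their controls the numbers were 141, 175 and 186. Among others, it was on the WBP11 RNAi values of EDC4 intron 15 and LAMB2 intron 26. PCNX3 intron 31 carried it in all 3 depleted libraries. RHBDL1 intron 6 carried a low splicing warning after SNW1 RNAi, on 1 spliced read.

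Further large rises after WBP11 auxin came in genes of unrelated roles. ATP13A1, an ATPase of the endoplasmic reticulum, went from 12.3% to 87.1% at intron 5. DHPS, which makes the hypusine residue of the translation factor eIF5A, went from 7.52% to 81.2% at intron 4 (chr19:12679544-12679622, 79 bp). HGS, an ESCRT component that sorts ubiquitinated receptors, went from 13.7% to 87.2% at intron 9 (chr17:81693582-81693653, 72 bp). All 4 short introns of HGS rose in the auxin pair, with differences between 33.5 and 73.5 points. ATP11B, a lipid flippase, went from 2.34% to 75.6% at intron 16. In the depleted library the number of observations behind the introns named here ran from 77.1 for MAP3K6 to 418 for PGAP6.

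After SNW1 RNAi, 102 short introns rose by at least 30 points and 16 by at least 50. The largest rise with at least 30 observations in both libraries was in PRKDC, the catalytic subunit of the DNA-dependent protein kinase, at intron 82 of 85 (chr8:47778661-47778727, 67 bp), from 0.120% to 73.1%, a difference of 72.9 points (67.8 to 77.4). After WBP11 RNAi the same intron stood at 2.17%, and with WBP11 auxin it went from 2.70% to 55.9%. PRKDC thus rose after SNW1 RNAi and WBP11 auxin and not after WBP11 RNAi. RHBDL1, a rhomboid protease, went from 24.8% to 97.1% at intron 6 on 41.2 and 34.0 observations. PPP1R16A, a regulatory subunit of protein phosphatase 1, went from 34.2% to 92.7% at intron 5 (chr8:144500200-144500266, 67 bp).

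ANAPC2, the cullin subunit of the anaphase-promoting complex, went from 11.5% to 67.2% after SNW1 RNAi at intron 9 (chr9:137180385-137180451, 67 bp). With WBP11 auxin it went from 10.9% to 62.2%, and after WBP11 RNAi it stood at 20.2%, a difference of 8.66 points (0.209 to 16.9). MAMDC4 and GHDC went from 23.0% to 77.9% and from 13.3% to 66.8% after SNW1 RNAi. FHOD1, a formin that assembles actin filaments, went from 21.9% to 78.3% at intron 5 (chr16:67238129-67238201, 73 bp). Another short intron of FHOD1, its last, intron 21 (chr16:67229719-67229792, 74 bp), had 23.3% in the control, 22.9% after WBP11 RNAi and 16.4% after SNW1 RNAi, but went from 31.2% to 81.4% with WBP11 auxin. In the auxin pair intron 5 went from 35.8% to 76.6%. Of this pair of introns, intron 5 rose after SNW1 RNAi and intron 21 did not, while both rose with WBP11 auxin.

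WBP11 RNAi raised 47 short introns by at least 30 points and 10 by at least 50. ZFYVE19, a regulator of the abscission of dividing cells, went from 11.98% to 81.5% at its last intron, intron 10 (chr15:40814071-40814147, 77 bp), a difference of 69.6 points (60.2 to 76.5). SNW1 RNAi gave 27.2% there, and WBP11 auxin 85.6% from 30.8%. RNF123, a ubiquitin ligase, went from 4.35% to 70.6% at intron 14 and stood at 37.3% after SNW1 RNAi. ATP13A1 went from 10.7% to 72.6% at intron 5 (chr19:19656917-19656993, 77 bp), with 21.4% after SNW1 RNAi. MUS81, a nuclease that resolves DNA junctions, went from 12.3% to 67.4% at intron 13 (chr11:65865146-65865219, 74 bp). PCNX3, PLCD1 (a phospholipase C), RECQL4 (a DNA helicase, at intron 15) and SEMA3B (a secreted semaphorin) completed the 8, with differences between 48.4 and 51.0 points. Without that minimum of 30 observations CLTCL1, which encodes a clathrin chain, came first, with 8% in the control and 78.4% after WBP11 RNAi at intron 25, on 25 and 18.5 observations.

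Falls were few, and most rested on few observations. Most short introns could not fall, since their control retention was below the drop that a fall requires. SIRT7, a nucleolar deacetylase, went from 16.3% to 3.53% after WBP11 RNAi at its first intron (chr17:81917968-81918038, 71 bp), a difference of -12.8 points (-21.6 to -5.59). HIP1R, a clathrin adaptor, went from 16.4% to 4.54% after WBP11 RNAi at intron 25, with an interval of -19.7 to -3.87 points. TNPO2, a nuclear import receptor, went from 12.3% to 1.79% at intron 8 (-18.8 to -1.26). These are the 3 falls after WBP11 RNAi whose interval lay below 0, of 9 in all, and TNPO2 was named after its values were seen. With WBP11 auxin the 1 such fall was in KLHL17, from 62.7% to 41.3% at intron 2 (-34.0 to -7.60), on 95.5 and 107 observations. Its depleted value carried the minor isoform warning, and with exactly spliced reads the difference at KLHL17 intron 2 was -11.995 points. After SNW1 RNAi there was none. LTBP3, a binding protein of latent TGF-beta, fell there from 38.8% to 28.0%, with an interval of -27.1 to 7.95 points.

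Of the 571 introns present in all 3 tables, 144 rose after WBP11 RNAi, 268 after SNW1 RNAi and 422 with WBP11 auxin. Comparisons with separate controls can be overlapped: 136 introns rose both after WBP11 RNAi and with WBP11 auxin, which is 94.4% of the first list and 32.2% of the second. Likewise 232 rose after SNW1 RNAi and with WBP11 auxin, which is 86.6% of the SNW1 list and 54.98% of the auxin list. Since 73.9% of the 571 rose with auxin, both shares stand above that level, the first by more. Across the 571 introns, the size of the change with WBP11 auxin correlated with that after WBP11 RNAi at Pearson r = 0.54 and with that after SNW1 RNAi at r = 0.24. These are descriptions over introns of the same libraries, without a test.

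**Figure D3:**
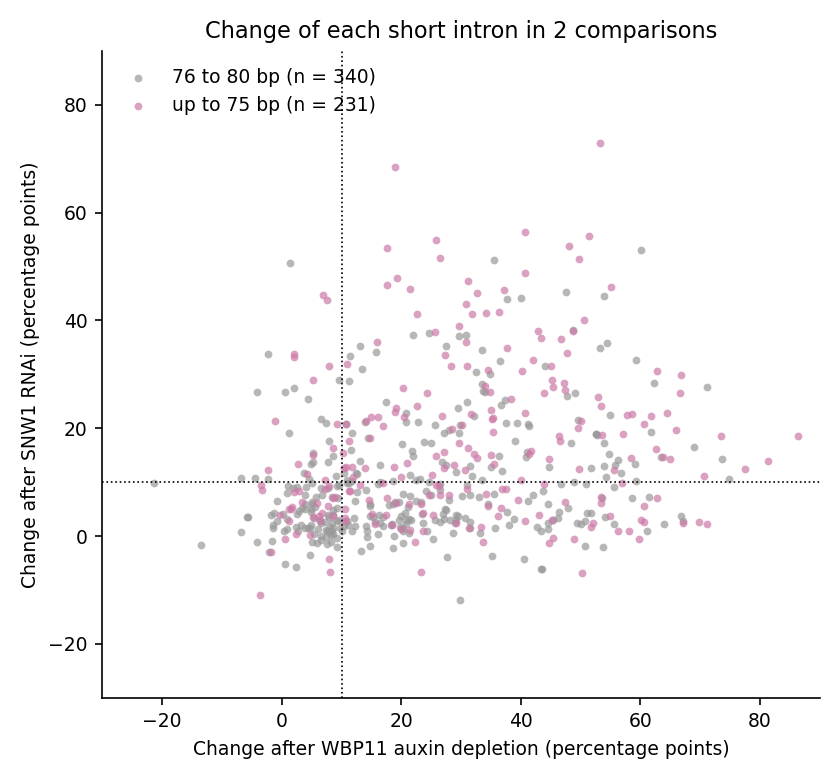
Change in retention (percentage points) after SNW1 RNAi (vertical) and with WBP11 auxin (horizontal) for the 571 introns in all 3 tables, each point 1 intron, coloured by length. Dotted lines mark 10 points; 232 introns lie above both, and the spread around any common trend is wide (r = 0.24).

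The RNAi libraries were also compared directly, without the control. Of 652 short introns past the depth minimum in both, 204 had at least 10 points more retention in the SNW1 RNAi library (31.3%) and 55 in the WBP11 RNAi library (8.44%). Among all 12751 introns the shares were 16.5% and 2.08%. Both directions were thus more frequent among short introns, and the median difference was 4.79 points towards SNW1, against 2.69 over all introns. EDC4, a scaffold of the mRNA decapping complex, is an example of the first direction, with 3.31% after WBP11 RNAi and 54.6% after SNW1 RNAi at intron 15 (chr16:67879775-67879849, 75 bp), from 8.07% in the control. RFC4, a subunit of the DNA clamp loader, is one of the second, with 44.1% after WBP11 RNAi and 22.5% after SNW1 RNAi at intron 9 (chr3:186790256-186790325, 70 bp), from 20.9%.

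Introns that rose in 1 comparison alone came mostly from the auxin pair. By the rule of a rise of at least 30 points and a change within 5 points elsewhere, 20 introns qualified for WBP11 auxin, 2 for SNW1 RNAi and 0 for WBP11 RNAi. Of the short introns in every table, 73.9% rose with WBP11 auxin, 46.9% after SNW1 RNAi and 25.2% after WBP11 RNAi. The counts were not made for longer introns, so they show nothing particular to short ones. NCAPD2, a condensin subunit, had 2.36%, 5.13% and 1.87% in the control, WBP11 RNAi and SNW1 RNAi libraries at intron 7 (chr12:6514393-6514463, 71 bp), and went from 3.49% to 63.3% with auxin. CRY1, a repressor of the circadian clock, had 4.46%, 9.38% and 5.38% at intron 11 (chr12:106992891-106992964, 74 bp) and went from 6.51% to 64.6%. ARHGAP10, a GTPase activating protein, went from 2.08% to 57.0% at intron 2. The 2 introns for SNW1 RNAi were in CXXC1, which guides a histone methyltransferase to CpG islands, and JMJD8. CXXC1 intron 6 (chr18:50285248-50285324, 77 bp) had 21.8%, 26.0% and 72.5% in the control, WBP11 RNAi and SNW1 RNAi libraries, and 20.8% and 22.2% in the auxin pair. JMJD8 intron 3 (chr16:683782-683860, 79 bp) had in the same order 14.6%, 14.3% and 48.5%, and 31.0% and 28.7%.

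In all 3 comparisons, 102 introns of 85 genes rose (17.9% of 571, where 5.82% of the 8601 introns of any length did). The RNAi comparisons share their control, so this count serves only to say where the following introns come from. LAMB2, the laminin beta 2 chain of basement membranes, gave 2 of the 8 with the largest smallest rise. Its intron 26 (chr3:49123374-49123446, 73 bp) had 12.96% in the control, 50.4% after WBP11 RNAi and 66.7% after SNW1 RNAi, and went from 31.9% to 80.02% with auxin. Its intron 27 (chr3:49123053-49123131, 79 bp) had 15.5%, 51.0% and 59.7%, and went from 37.1% to 77.1%. Both depleted RNAi libraries lay above both controls at each. MTA1, a subunit of the NuRD chromatin complex, had 15.9%, 52.4% and 51.6% at intron 5 (chr14:105450185-105450260, 76 bp), and 35.0% and 89.4% in the auxin pair. MUS81 intron 13 went from 26.2% to 89.0% with auxin and stood at 42.8% after SNW1 RNAi. ACADVL, which starts the oxidation of very long chain fatty acids, had 8.57%, 38.6% and 41.2% at intron 3 (chr17:7220530-7220603, 74 bp), and 22.2% and 64.2% in the auxin pair. KIFC2 (a kinesin), RECQL4 at intron 10 and COL7A1 (the collagen of anchoring fibrils) were the others, and the COL7A1 value rests on 12.3 observations in the WBP11 RNAi library. The auxin values of COL7A1 and RECQL4 intron 10 carried the minor isoform warning.

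**Figure D4:**
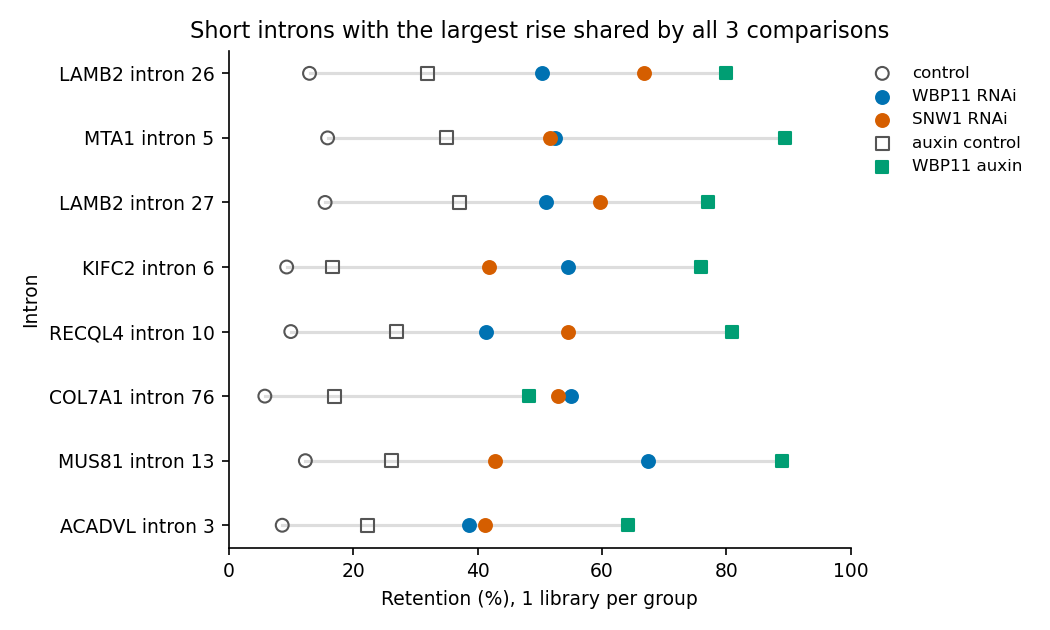
Retention (%) in each of the 5 libraries for the 8 short introns with the largest smallest rise over the 3 comparisons. Open symbols are the controls and filled symbols the depleted libraries; in each row the depleted libraries lie right of their own control, and WBP11 auxin is highest in 7 rows, COL7A1 being the exception.

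The short introns were also set against longer introns of the same genes. Of the short introns in genes that also listed clean introns over 80 bp, 730 of 881 (82.9%) changed more with WBP11 auxin than the mean of those longer introns, by a median of 12.9 points. The same count was 465 of 812 (57.3%) after SNW1 RNAi, with a median of 1.28 points, and 361 of 677 (53.3%) after WBP11 RNAi, with 0.54 points. In these genes 64.7%, 44.6% and 25.1% of the short introns rose in the same order, against 19.2%, 27.1% and 14.4% of the longer ones. Where a short intron and a longer one flank the same exon, the longer neighbour rose in 44.7% of the pairs whose short intron rose after SNW1 RNAi and in 17.8% of the others. After WBP11 RNAi these shares were 37.7% and 9.69%, and with WBP11 auxin 29.6% and 14.7%.

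Genes with several short introns showed both uniform and mixed behaviour. Of 146 genes with at least 2 in the auxin table, all rose in 47, none in 11 and some in 88. For SNW1 RNAi the numbers were 29, 37 and 76 of 142, and for WBP11 RNAi 6, 61 and 54 of 121. The following genes were chosen after their values were seen. All 4 short introns of ACADVL rose in each comparison, by 17.8 to 30.1 points after WBP11 RNAi, 22.7 to 32.7 after SNW1 RNAi and 34.1 to 58.6 with WBP11 auxin. PIEZO1, a mechanically gated ion channel with 11 short introns in the auxin table, had 3 that rose there, 1 of 8 after SNW1 RNAi and 0 of 8 after WBP11 RNAi. In PIEZO1 the 1 that rose after SNW1 RNAi was intron 25 (71 bp), from 2.01% to 32.5%, and it also led the gene with auxin, from 7.18% to 47.4%. ATP13A1 had 2 neighbouring introns that rose after WBP11 RNAi, introns 5 and 6, to 72.6% and 70.7%, while its other 4 short introns in that table lay between 0 and 11.7%.

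By sequence, the comparisons were ordered differently. These values cover the introns with a readable sequence, which rose more often than the rest (30.5% against 20.04% after WBP11 RNAi, 56.04% against 36.9% after SNW1 RNAi, 74.1% against 59.9% with WBP11 auxin). They are descriptions over introns of 1 library pair each, and no difference between classes was tested. With WBP11 auxin, 80.6% of the third with the lowest G and C content rose, 77.6% of the middle and 64.3% of the highest. After SNW1 RNAi the order was opposite, with 46.5%, 59.6% and 62.0%. WBP11 RNAi gave 30%, 34.1% and 27.5%, with no order. The opposite order for WBP11 auxin and SNW1 RNAi was also found within 70 to 80 bp, where the lowest and highest classes gave 79.6% and 61.7% with auxin and 44.7% and 58.9% after SNW1 RNAi.

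G runs, here 3 or more G in a row, are known to bind hnRNP H and F proteins and to act as splicing enhancers in short introns. With WBP11 auxin, 87.3% of 102 introns with 0 or 1 such run rose, 76.9% of 52 with 2, 66.0% of 50 with 3 and 62.2% of 90 with 4 or more. The median change went from 35.8 points in the first class to 15.1 in the last. After SNW1 RNAi the shares were 51.0%, 63.6%, 60.8% and 54.3%, and after WBP11 RNAi 33.0%, 35.4%, 30% and 25%. The introns with more runs are also richer in G and C, with a median of 53.6% in the first class and 68.2% in the last of the auxin table. Within the G and C poorer introns, 86.5% with at most 2 runs and 67.4% with 3 or more rose with auxin, and within the richer ones 78% and 61.9%. After WBP11 RNAi the corresponding shares were 38.5% and 20% (8 of 40) in the poorer introns, but 23.9% and 30% in the richer, where the order was turned. SNW1 RNAi gave 50.5% and 46.8%, then 65.4% and 61.5%.

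**Figure D5:**
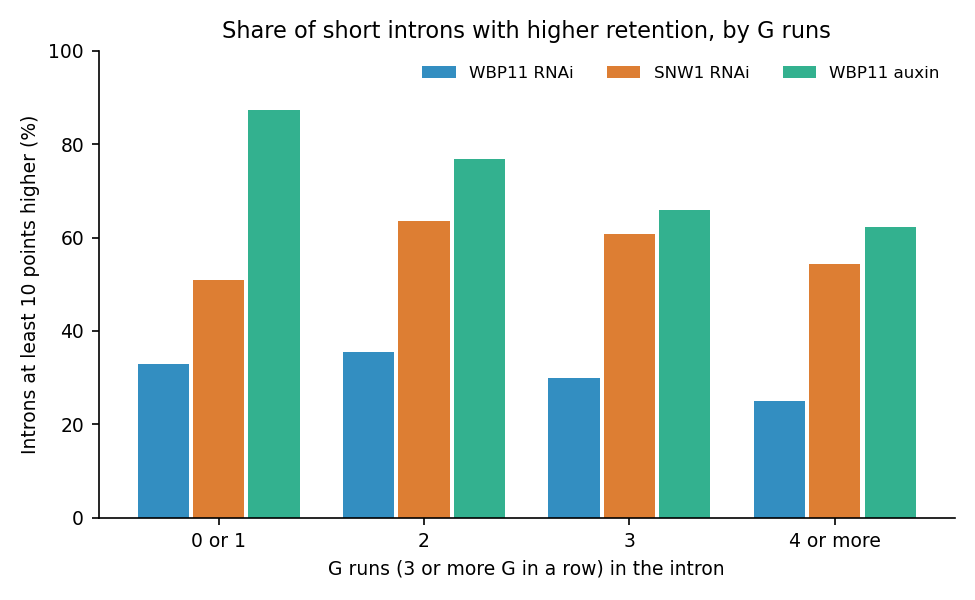
Share (%) of short introns at least 10 points higher than control (vertical axis, from 0) by the number of G runs in the intron (horizontal axis) in the 3 comparisons. The WBP11 auxin bars fall from 87.3% to 62.2%, and the SNW1 RNAi bars show no such order.

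The donor start was another feature. Introns that begin with GTGAGT rose in 5 of 38 cases after WBP11 RNAi (13.2%), those with GTAAGT in 3 of 20 (15.0%) and all others in 75 of 214 (35.0%). With WBP11 auxin the shares were 60.5% of 43, 84.2% of 19 and 75.9% of 232. After SNW1 RNAi they were 65.9% of 44, 57.9% of 19 and 54.0% of 235, so GTGAGT stood highest there and lowest in both WBP11 comparisons. The classes are small, and after WBP11 RNAi the shares of GTGAGT and GTAAGT lie within counting error of each other. Introns with CTNAC rose in 35.7% against 26.9% without it after WBP11 RNAi, 60.7% against 52.8% after SNW1 RNAi and 76.3% against 72.7% with WBP11 auxin. The pyrimidine content of the 20 bases before the last 3 was also divided in 3 classes, of which the lowest and the highest gave 32.2% and 27.5%, 53.5% and 53.0%, and 76.5% and 70.4% in the 3 comparisons. A match is a description of letters, not a shown binding site.

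Retention in the control library went with the size of the later rise. This class uses the same control as the difference, so it is a description only. In the lowest class, introns below the listing minimum in the control are counted only where the depleted library reached it. With WBP11 auxin, 45.5% of the 321 introns under 2% in the control rose, 68.4% of the 215 at 2 to 5%, 76.8% of the 289 at 5 to 20% and 81.6% of the 98 over 20%. Clean introns over 80 bp with under 2% in the control rose in 5.21% of 10027 cases, and in the next 3 classes in 9.07%, 21.7% and 40.2%. After SNW1 RNAi the short introns gave 21.6%, 46.6%, 74.1% and 62.5%, and the longer ones 5.56%, 20.1%, 42.2% and 62.2%. WBP11 RNAi gave 14.04%, 21.4%, 32.7% and 58.7% in the short introns and 3.13%, 5.73%, 16.4% and 38.9% in the longer ones. The rise of the share with control retention is thus not particular to short introns. By position in the transcript, 65.2% of the middle and 60.6% of the last introns rose with WBP11 auxin, as did 6 of 15 first introns. After WBP11 RNAi 25.3% of the middle, 13.2% of the 53 last and 0 of 14 first introns rose. After SNW1 RNAi these were 43.9%, 42.1% of 57 and 4 of 12.

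Lists of genes for DNA replication and repair, cell division, chromatin, ubiquitin and RNA processing held few short introns each, and their shares are read against the 23.9%, 43.6% and 64.5% of all short introns. Among DNA replication genes, 9 of 10 rose with WBP11 auxin (in POLE, RFC4, PRIM1, POLD1, MCM5, CDC45 and CDT1), 1 of 6 after SNW1 RNAi and 2 of 7 after WBP11 RNAi. POLE, the leading strand polymerase, went from 21.8% to 86.2% with auxin at intron 17 (chr12:132668738-132668810, 73 bp), and RFC4 from 34.8% to 86.5%. POLE had 41.9% after WBP11 RNAi and 42.4% after SNW1 RNAi, from 19.7%. Of the recombination and Fanconi genes, 7 of 9 short introns rose with auxin and 5 of 10 after WBP11 RNAi, in MUS81, RECQL4 and FANCI, and 5 of 9 after SNW1 RNAi, in MUS81 and RECQL4. Of DNA damage kinases and their partners, 3 of 5 rose with auxin, 1 of 3 after SNW1 RNAi (PRKDC) and 2 of 4 after WBP11 RNAi (ATM and TRRAP). The ATM rise, at intron 2, rested on 29 observations in the control and 13.4 after WBP11 RNAi. Its depleted value carried the warning of uneven intron cover.

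Among cell division genes most rises were in the auxin pair, which also had the highest share over all short introns (64.5%). Each of these lists held at most 5 short introns per table, too few to set them apart from all short introns. In the anaphase-promoting complex and checkpoint list, 4 of 4 rose with auxin, in ANAPC2, ANAPC4, ANAPC5 and CDC23, 2 of 5 after SNW1 RNAi and 0 of 4 after WBP11 RNAi, where 1 fell. ANAPC5 intron 14 (chr12:121318425-121318500, 76 bp) had 5.07% in the control, 10.6% after WBP11 RNAi and 22.3% after SNW1 RNAi, and went from 8.95% to 62.9% with auxin. All 4 of the centriole list rose with auxin, 2 of 4 after SNW1 RNAi and 1 of 5 after WBP11 RNAi, among them CENPJ, which sets centriole length, from 10.3% to 54.8% at intron 15, and CEP135 from 34.5% to 79.9% at intron 16. In TUBGCP6, a subunit of the gamma-tubulin ring complex that nucleates microtubules, all 3 short introns rose with auxin and after SNW1 RNAi and none after WBP11 RNAi. Of its 3, intron 23 (chr22:50218118-50218188, 71 bp) had 36.1%, 41.4% and 62.8% in the control, WBP11 RNAi and SNW1 RNAi libraries and went from 41.7% to 85.6% with auxin. For sister chromatid cohesion, CDCA5 (sororin) and CHTF18 gave the 2 short introns in the auxin table, from 3.01% to 26.6% and from 0.390% to 24.6%, and neither rose after RNAi in the tables that list it.

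Chromatin and ubiquitin genes held the most short introns. Among chromatin modifiers 14 of 21 rose with WBP11 auxin, 10 of 19 after SNW1 RNAi and 6 of 15 after WBP11 RNAi. KMT2B, a histone methyltransferase, had 6.69%, 25.5% and 27.4% at intron 24 (chr19:35730463-35730537, 75 bp) and went from 10.4% to 70.9%. Among ubiquitin ligases and proteases 11 of 15, 4 of 15 and 2 of 14 rose in the same order. Of the spliceosome and SR protein list 2 of 3 rose with auxin, among them CLK1, a kinase of SR proteins, from 10.5% to 35.8% at intron 8. None of its 2 short introns rose after WBP11 RNAi and none of its 3 after SNW1 RNAi. In the RNA decay list 2 of 4 rose with auxin, 2 of 3 after SNW1 RNAi, both in EDC4, and 0 of 4 after WBP11 RNAi. XRN2, the nuclear exonuclease that ends transcription, went from 1.32% to 47.7% with auxin and stood at 4.39% and 4.68% after RNAi. In the membrane transport list 2 of 4 rose with auxin, 1 of 3 after SNW1 RNAi and 1 of 3 after WBP11 RNAi, the last 2 both in CLTCL1.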

How the data were processed

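The 5 libraries fall into 3 tables of 1 depleted library against 1 control, made with IRFinder from STAR alignments to hg38 per the file headers. RSEM and bedtools are also named, per the submitters' processing notes, without versions in the sources used here. The retention ratio is a fraction as deposited by the authors. Intron depth is a deposited coverage signal over the intron bases that IRFinder kept (10 bases were left out of most short introns), and spliced reads are a deposited count per intron. The deposited ratio can use more spliced reads than the count column lists, as in 350 of 923 short introns of the WBP11 auxin library. Where the listed depth is under 1, the ratio rests on the listed share of covered bases instead. Every listed intron reached 1% in at least 1 library, so introns below that in both are not counted here.

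Retention, differences, Wilson and Newcombe 95% intervals and all counts were computed with Python 3.11.15 (numpy 2.4.6, pandas 2.3.3, scipy 1.17.1, figures with matplotlib 3.10.9), with depth plus listed spliced reads as observations and a minimum of 10. No test was possible with 1 library per group. All 34560 introns matched GENCODE release 29 exactly, which gave intron numbers, coding position and sequences. Coordinates are hg38, counted from 1. The calls were run on simulated counts that held counting error only, so this cannot cover variation between libraries. The introns, gene lists and rules were chosen with earlier results of these data known. Besides WBP11 and SNW1, the introns named are the 8 largest rises and 3 largest falls per table with at least 30 observations (1 per gene), the 8 with the largest smallest rise over all tables, the 5 shortest, up to 3 per table that rose there alone, the deepest at 80 and 81 bp, and up to 2 per gene list; others are said to be chosen after seeing values. Some introns that this rule selects are not reported here.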

Additional observations from a re-analysis of the deposited data

Results flagged for a closer look

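In 5 short introns, retention rose by at least 10 points in one comparison and fell by at least 10 points in another, each on 1 library per group, and the difference between the comparisons was not tested. ANAPC4 intron 23 (chr4:25414386-25414465, 80 bp) changed by -12.3 points after WBP11 RNAi and by 40.6 points with WBP11 auxin, a gap of 52.9 points. HIP1R intron 25 changed by -11.9 points after WBP11 RNAi, by 12.7 after SNW1 RNAi (a gap of 24.5 points) and by 13.9 with WBP11 auxin (a gap of 25.7 points). TNPO2 intron 8 changed by -10.5 points after WBP11 RNAi, by 15.4 after SNW1 RNAi (a gap of 25.9 points) and by 10.2 with WBP11 auxin (a gap of 20.7 points). IL18BP intron 3 changed by -13.2 points after WBP11 RNAi and by 13.9 after SNW1 RNAi, a gap of 27 points, on 13.9 observations in the control and 12 after WBP11 RNAi. DNASE1L2 intron 1 changed by -11.8 points after SNW1 RNAi and by 29.8 with WBP11 auxin, a gap of 41.6 points, on 11 observations in the control of the SNW1 RNAi table.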

How the results depend on the processing

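No paired analysis was possible because each group holds 1 library. No library could be left out for the same reason. No median change, gap between shares or named change of at least 10 points reversed its sign under the alternatives run for it. Counts have no sign, so they could only stay or move. The results by G runs, donor start, CTNAC, position in the transcript, flanking introns, control retention and gene list were not run under these alternatives. Counts of rises are given for WBP11 RNAi, SNW1 RNAi and WBP11 auxin in that order, then the count of introns that rose in all 3. Of the alternatives that moved a count or median by more than 1.5 times, a difference of 20 points left 94 and 197 rises in the RNAi comparisons and 35 shared, with 0, 0 and 1 falls. A difference of 5 points gave 160 shared rises and 33, 13 and 10 falls. A 2-fold rule on retention plus 1 point gave 313 and 633 rises in the RNAi comparisons, 188 shared and 70, 16 and 5 falls. A length limit of 75 bp gave 83 of 273, 186 of 320 and 245 of 325 rises (30.4%, 58.1% and 75.4%) and 54 shared. Falls were 5, 1 and 0, and median changes 3.52 points for WBP11 RNAi and 12.7 for SNW1 RNAi. A limit of 90 bp gave 306 of 1689, 638 of 2105 and 1129 of 2458 rises (18.1%, 30.3% and 45.9%). Falls there were 14, 7 and 14, and medians 4.81 points for SNW1 RNAi and 8.35 for WBP11 auxin. At 80 bp the shares were 23.9%, 43.6% and 64.5%, so the lower limit raised the share and the higher one lowered it. Using 1 intron per gene left 112 and 232 rises in the RNAi comparisons and 50 shared, with fewer introns counted. Introns with no warning in both libraries gave 96 of 418, 214 of 478 and 333 of 504 rises, 35 shared, and 4, 1 and 0 falls.

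Falls, few throughout and not possible for most short introns under the reported rule, moved more than rises. Without a depth minimum there were 16 after WBP11 RNAi and 7 with auxin, at 30 observations 4 after WBP11 RNAi and 1 after SNW1 RNAi, and with introns of any mark 6 after SNW1 RNAi and 5 with auxin. Requiring the interval of the difference to be clear of 0, chosen after seeing the data, gave 23 falls after WBP11 RNAi and 1 after SNW1 RNAi, and together with the 10 points 3, 0 and 1. The share that rose exceeded that of longer clean introns by 16.2 points after WBP11 RNAi and 28.9 after SNW1 RNAi, and by 10.7 and 17.5 points within the same genes. Of 138 alternative values, 82 stayed within 1.5 times. With exactly spliced reads, 189 changes of named introns stayed inside their interval and 2 did not, at KDM6A intron 21 (87.03 points) and RECQL4 intron 10 (61.3 points), both with WBP11 auxin. With the listed spliced reads, an alternative also chosen after seeing the data, 21 short introns of the depleted auxin library would move by at least 10 points, the most by 37.3. The fourth alternative added after seeing the data, 3 classes of G and C content in place of 2, changed the gap between the richest and the poorest introns after WBP11 RNAi to -2.53 points.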

Other observations

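Introns of up to 80 bp whose deposited mark gives an overlap with an exon were left out of the report, since exon reads can count as retention there. The mark does not catch every case, as at least 336 of the 1069 introns kept lie inside an exon of a GENCODE transcript. Of the introns left out, 27 of 98 rose after WBP11 RNAi (27.6%) and 39 of 102 after SNW1 RNAi (38.2%). With WBP11 auxin 68 of 102 rose (66.7%).

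Among the introns whose retention would neither shift the reading frame nor bring a stop codon, 1 of 15 rose after WBP11 RNAi, 7 of 18 after SNW1 RNAi and 11 of 18 with WBP11 auxin. Introns that would bring a stop codon in frame rose in 57 of 173, 104 of 184 and 142 of 183 cases. By the share of T in the 20 bases before the last 3, of 3 equal classes the one with most T rose in 82.7% of cases with WBP11 auxin and the one with least in 66.3%; after SNW1 RNAi these shares were 46.0% and 59.6%. WBP11 RNAi gave 23.1% in the class with most T, 36.3% in the middle and 32.2% in the class with least.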
